A study of Mus musculus with 4 samples.

Results

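Vitamin E and carotenoid handling genes are described here as a set of 10 genes, listed by name with earlier results of these data known. They are Ttpa, Scarb1, Cd36, Bco1, Bco2, Stard3, Gstp1, Sec14l2, Pltp and Npc1l1. Every probe that the array design names for them was used, which gave 13 of 55681 probes and 10 of 35753 genes. The samples were 3D-retinas, retinal tissue grown in suspension from mouse Nrl-GFP induced pluripotent stem cells, in which rods carry a green fluorescent reporter. Retinas bright in GFP were picked with tweezers. Treatment began on day 23 of differentiation and the tissue was taken on day 25, when photoreceptor degeneration begins according to the labels. The 4 groups were 4-hydroxytamoxifen (4-OHT, an active metabolite of tamoxifen) plus vitamin E at 400 µM, 4-OHT plus lutein at 200 nM, 4-OHT alone, and vehicle (ethanol), with 4-OHT always at 5 µM. All groups share the reporter cell background, which is not set against other cells here, and each group was 1 single-colour array, on RNA of 24 retinas in a pool. Without replicates no difference could be tested, and no p-value is given.

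Vitamin E is a group of lipid-soluble antioxidants, of which alpha-tocopherol is the main form in tissues, and lutein is a yellow plant carotenoid that the primate macula concentrates together with zeaxanthin. Animals make neither. Both travel in lipoproteins, enter cells through lipid receptors, are carried by binding proteins and are broken down by dedicated enzymes, and photoreceptors, whose membranes are rich in easily oxidised fatty acids, are a tissue in which both are held to be protective. Mice do not form a macula and keep little lutein in the eye.

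The scanner software called 51.3% to 54.5% of an array's gene spots well above background and none saturated. Levels are given as log2 intensity minus the array's 75th percentile over gene spots, so that 0 is the 75th percentile and 1 unit is 2-fold. Levels of different probes are not comparable with each other, because each probe binds with its own strength. Over probes printed in 10 copies, spot noise alone gave a log2 difference between arrays an SD of 0.14 to 0.15. At intensities of 30 to 100 it was 0.34 to 0.45. Neither value includes differences between cultures, and the number of arrays sets the precision.

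Detection separated the set into genes with a signal and genes without. Scarb1, Stard3, Gstp1 and Sec14l2 were well above background on all 4 arrays, and Bco2 on 3 of 4. Ttpa, Cd36, Bco1, Pltp and Npc1l1 reached it on 0 of 4 arrays, so 5 of 10 genes, with 7 of 13 probes, carry the results.

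The undetected genes include the classical vitamin E carrier and the enzyme of vitamin A formation. Ttpa encodes the alpha-tocopherol transfer protein, which returns alpha-tocopherol to plasma from the liver. Its 2 probes, on chromosome 4 of mm9 at chr4:19955668-19955727 and chr4:19957856-19957915, had intensities of 6.28 and 5.20 with 4-OHT and vitamin E, 8.79 and 6.80 with 4-OHT and lutein, 6.05 and 5.12 with 4-OHT alone, and 12.4 and 6.41 in vehicle. All of these lay below the lowest intensity called well above background on the same array, which was 23.4 with vitamin E, 31.4 with lutein, 23.7 with 4-OHT alone and 29.1 in vehicle. The scavenger receptor gene Cd36, which takes up fatty acids and carotenoids, lay between 5.21 and 6.86 on the 4 arrays. Bco1, the enzyme that splits beta-carotene into retinal, lay between 5.01 and 6.61.

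Pltp and Npc1l1 were nearer the detection limit. Pltp, which moves phospholipids and vitamin E between lipoproteins, had intensities of 9.29 with vitamin E, 19.8 with lutein, 11.0 with 4-OHT alone and 23.8 in vehicle. Npc1l1, the intestinal cholesterol importer blocked by ezetimibe, had 6.43 with vitamin E, 16.3 with lutein, 26.3 with 4-OHT alone and 7.86 in vehicle. The 4-OHT value of Npc1l1 exceeded the lowest intensity called well above background on that array, but its own spot was not called so. No fold is given for any of these 5 genes, because both sides of every comparison would be below background. A signal that is not well above background does not show that the transcript is absent.

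The uptake receptor Scarb1 was lower with 4-OHT than in vehicle and stood near its vehicle level when vitamin E was present. Scarb1 encodes scavenger receptor class B type 1, a receptor for high-density lipoprotein that also imports vitamin E, lutein and zeaxanthin. Its brighter probe had levels of 4.43 with vitamin E, 4.02 with lutein, 3.60 with 4-OHT alone and 4.46 in vehicle. The 4-OHT array was the lowest, the vehicle and vitamin E arrays were the highest, and lutein lay between. Against vehicle, 4-OHT alone differed by -0.86 (1.81-fold lower), and 5.40% of protein-coding genes had a lower value in that comparison. The second probe (chr5:125761540-125761599, minus strand, mm9) had levels of 0.22 with vitamin E, -0.16 with lutein, -0.43 with 4-OHT alone and 0.42 in vehicle, in the same order except that vitamin E lay 0.20 below vehicle rather than 0.03. It gave -0.85 for 4-OHT against vehicle.

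The carotenoid-binding enzyme gene Gstp1 had the same order of arrays. Gstp1 encodes a pi-class glutathione S-transferase, which joins glutathione to reactive compounds, and the human protein is known as a zeaxanthin-binding protein of the macula. Its brighter probe had levels of 4.40 with vitamin E, 4.00 with lutein, 3.67 with 4-OHT alone and 4.40 in vehicle. Vitamin E and vehicle were level, 4-OHT alone was lowest, and lutein lay between. The difference of 4-OHT from vehicle was -0.74 (1.67-fold lower). The second probe (chr19:4037306-4037365, minus strand, mm9) had levels of 3.55 with vitamin E, 3.16 with lutein, 2.93 with 4-OHT alone and 3.60 in vehicle, a difference of -0.67 for 4-OHT against vehicle.

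Mice carry a near-identical neighbour, Gstp2, and the array cannot fully separate the pair. The design lists the second Gstp1 probe for transcripts of both genes, and it gives no genome position for the brighter one. Of the Gstp1 and Gstp2 probes, 2 overlap along 35 bases, of which 30 match. The 5 differences, written with the Gstp1 base first and counted from the 5′ end of the Gstp1 probe, are T14G, C19A, C21G, C29G and C30A. They are in capitals in the sequences below, and the probe shared by both genes is added for contrast, with no capitals.
Gstp1 brighter probe: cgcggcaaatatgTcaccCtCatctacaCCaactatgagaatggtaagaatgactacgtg
Gstp2 probe at chr19:4040983-4041042 (minus strand, mm9): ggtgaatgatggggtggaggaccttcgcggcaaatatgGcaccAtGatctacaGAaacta
Gstp1 second probe, shared with Gstp2: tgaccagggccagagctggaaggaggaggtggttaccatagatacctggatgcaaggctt

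The probes named for Gstp2 had the same order of arrays as those for Gstp1. The one printed above had levels of 4.56 with vitamin E, 4.12 with lutein, 3.86 with 4-OHT alone and 4.61 in vehicle. The other, the brighter, had 6.72 with vitamin E, 6.46 with lutein, 6.13 with 4-OHT alone and 6.73 in vehicle. For 4-OHT against vehicle they differed by -0.74 and -0.60. All 4 probes of the pair were thus lowest with 4-OHT alone, and values for Gstp1 are uncertain as to which of the genes they come from.

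Sec14l2 had the largest difference between 4-OHT and vehicle of the 4 members detected on all arrays. It encodes a lipid-binding protein of the SEC14 family, also called supernatant protein factor or tocopherol-associated protein, which binds tocopherol and stimulates squalene oxidation in cholesterol synthesis. Its probe (chr11:3997274-3997333, minus strand, mm9) had levels of 4.01 with vitamin E, 3.80 with lutein, 3.35 with 4-OHT alone and 4.32 in vehicle. Vehicle was the highest array here and 4-OHT alone the lowest, with vitamin E below vehicle by 0.31. The difference of 4-OHT from vehicle was -0.98 (1.97-fold lower), just short of the 2-fold limit used to count a gene, and 3.64% of protein-coding genes had a lower value.

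Stard3 did not share this order. It encodes a late endosomal cholesterol-transfer protein whose primate form is the lutein-binding protein of the macula. Its probe (chr11:98242252-98242311, plus strand, mm9) had levels of 3.07 with vitamin E, 3.02 with lutein, 3.09 with 4-OHT alone and 2.83 in vehicle. The 3 arrays with 4-OHT lay within 0.07 of each other and above vehicle, by 0.24 with vitamin E, 0.19 with lutein and 0.26 with 4-OHT alone, which is less than 2 of the spot-to-spot SDs. This depends on the scaling, as 4-OHT alone differed from vehicle by 0.39 with quantile normalization and by 0.11 with spike-in scaling.

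Bco2, the mitochondrial enzyme that cleaves lutein, zeaxanthin and other carotenoids off-centre, was close to the detection limit. Its probe (chr9:50341275-50341334, minus strand, mm9) had intensities of 73.4 with vitamin E, 66.4 with lutein, 29.7 with 4-OHT alone and 50.2 in vehicle, with scanner-software errors of 9.74, 10.6, 6.93 and 8.98 in that order of arrays. The 4-OHT spot was not well above background, but it lay above the lowest intensity called so on that array (23.7). Its own value was therefore used, and differences from that array are not bounds. Both supplemented arrays were the highest, and 4-OHT alone was the lowest. Bco2 was 1.49-fold lower with 4-OHT than in vehicle on the scanner's own background correction. The log2 difference was -0.58, against a spot-to-spot SD of 0.43 for this pair of arrays at intensities of 30 to 100. The 4-OHT spot, at 29.7, lay just below that range. With normexp background correction the difference was -0.10. That correction adds an offset of 50 to every signal, which shrinks differences at intensities like these, so it is no independent check on Bco2.

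**Figure D1:**
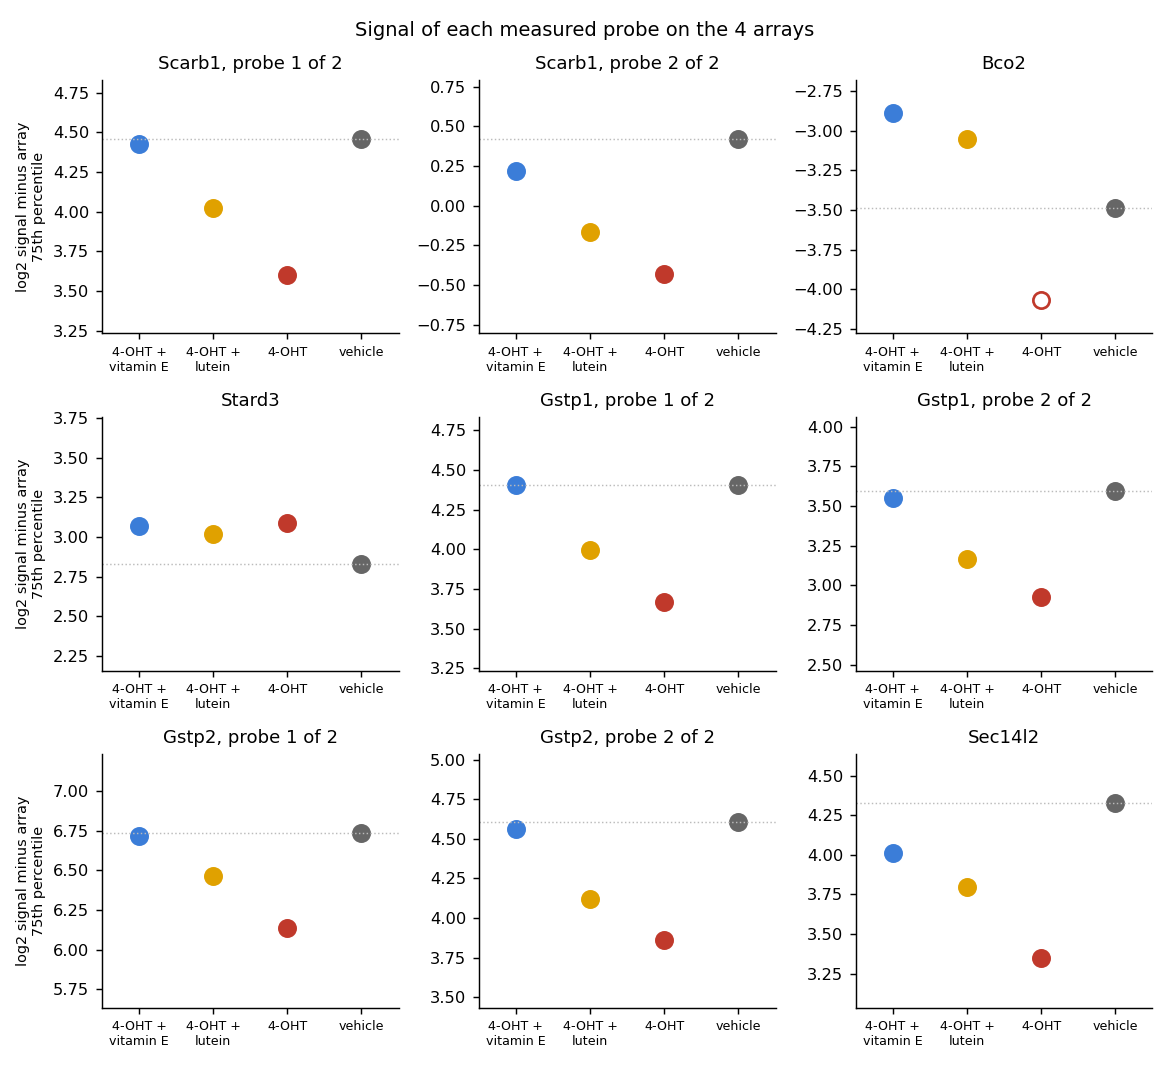
Level of each probe with a signal (y axis, log2 intensity minus the array's 75th percentile) on the 4 arrays (x axis), 1 point per array, with the same y span of 1.6 in every panel and Gstp2 shown beside Gstp1. Open circles mark a spot not well above background, the dotted line marks vehicle, and Scarb1, Gstp1, Gstp2, Sec14l2 and Bco2 are lowest with 4-OHT alone while Stard3 is lowest in vehicle.

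The comparison of 4-OHT with vehicle asked what the drug alone did. Of the 5 measured members 0 were at least 2-fold higher and 0 at least 2-fold lower, where 7.75% of all 22084 measured genes were counted higher and 3.14% lower. At a limit of 1.5-fold, 3 of 5 members were lower (Scarb1, Gstp1 and Sec14l2), where 13.5% of all genes were lower, and 0 were higher, where 15.2% of all genes were. Their median log2 difference was -0.74, beside -0.06 over all genes and -0.13 over protein-coding genes. Scaled on external spike-in RNA, which moved the median of all genes to -0.21, Sec14l2 (-1.12) passed 2-fold and Scarb1 just reached it.

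Next, 4-OHT plus vitamin E was set against 4-OHT alone, which asked what the antioxidant changed. With vitamin E, 1 of 5 members was at least 2-fold higher than with 4-OHT alone and 0 were lower, where 1.48% of all 22160 genes were counted higher and 8.81% lower. The counted gene was Bco2, 2.27-fold higher (log2 difference 1.18, spot-to-spot SD 0.34). Its 4-OHT spot was not well above background, so it entered only through its vitamin E spot. With detection required on both arrays, 0 members were counted. With normexp, whose offset shrinks differences at such intensities, Bco2 dropped under the limit, with a log2 difference of 0.31. Scarb1 was 1.77-fold higher, Gstp1 1.67-fold and Sec14l2 1.58-fold. At 1.5-fold, 4 of 5 members were higher, where 8.56% of all genes were higher, and 0 were lower, where 15.6% were. The members' median was 0.74, beside 0.08 over all genes and 0.17 over protein-coding genes. The second probes gave 0.65 for Scarb1 and 0.62 for Gstp1. Stard3 differed by -0.02, or by 0.20 on spike-in scaling, which moved the median of all genes to 0.30.

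Lutein added to 4-OHT was set against 4-OHT alone in the same way. With lutein, 1 of 5 members was at least 2-fold higher than with 4-OHT alone and 0 were lower, where 1.15% of all 21997 genes were counted higher and 3.84% lower. It was again Bco2, 2.02-fold higher (log2 difference 1.02, spot-to-spot SD 0.36), which entered only through its lutein spot. With detection required on both arrays, 0 members were counted. With normexp and its offset Bco2 differed by 0.19. Sec14l2 differed by 0.45, Scarb1 by 0.42 and Gstp1 by 0.33, with 0.27 for the second Scarb1 probe and 0.24 for the second Gstp1 probe. None of these 3 genes reached 1.5-fold. At that limit 1 of 5 members (Bco2) was higher and 0 lower, where 3.84% of all genes were higher and 9.15% lower. The members' median was 0.42, beside 0.08 over all genes and 0.13 over protein-coding genes. Stard3 differed by -0.07, or by 0.04 on spike-in scaling, under which the median of all genes was 0.19.

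Both supplemented samples were also set against vehicle. With vitamin E, 0 of 5 members were past 2-fold, where 1.09% of all 21364 genes were counted higher and 1.98% lower, and the median was 0.00. Gstp1 differed by 0.00, Scarb1 by -0.03, Sec14l2 by -0.31, Stard3 by 0.24 and Bco2 by 0.60, so that 1 of 5 was past 1.5-fold, where 4.4% of all genes were higher and 6.62% lower. With lutein, 0 of 5 were past 2-fold, where 3.43% of all 21352 genes were counted higher and 1.49% lower, and the median was -0.41. Sec14l2 differed by -0.53, Scarb1 by -0.44, Gstp1 by -0.41, Stard3 by 0.19 and Bco2 by 0.44, with 0 of 5 past 1.5-fold, where 9.19% of all genes were higher and 5.8% lower. At the intensities of Bco2 the spot-to-spot SD was 0.44 for the vitamin E comparison and 0.45 for the lutein one. With normexp background Bco2 differed from vehicle by 0.21 with vitamin E and by 0.087 with lutein, so that it was not past 1.5-fold with either. The normexp offset shrinks such differences at these intensities. The 5 comparisons share arrays, so their values are not independent of each other. The doses of the supplements differ, so they are given side by side and not ranked.

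**Figure D2:**
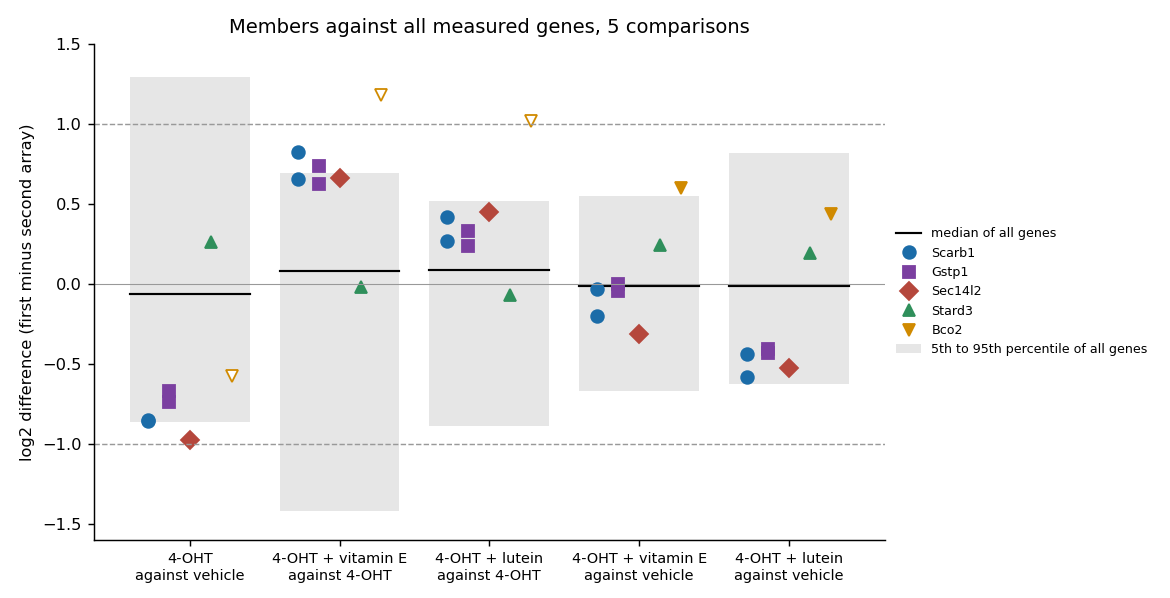
Log2 differences of the measured members (y axis) in the 5 comparisons (x axis, first array minus second), with both probes of Scarb1 and Gstp1. Open symbols mark a difference in which a spot was not well above background. Grey bars span the 5th to 95th percentile of all measured genes, black lines are their medians and dashed lines mark 2-fold. Scarb1, Gstp1 and Sec14l2 lie between -0.98 and -0.67 for 4-OHT against vehicle and between 0.62 and 0.82 for vitamin E against 4-OHT.

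Rod marker genes, which check the labelled retinal tissue, moved with Scarb1, Gstp1 and Sec14l2. All 6 rod markers were well above background on every array, and their summed level, in multiples of the array's 75th percentile, was 756 with vitamin E, 582 with lutein, 464 with 4-OHT alone and 888 in vehicle. Most of that sum was the brighter Nrl probe, with a log2 level of 8.99 in vehicle, beside 5.58 for Gnat1. All 6 were lower with 4-OHT than in vehicle (median -0.90), and 2 of them by at least 2-fold, where 3.14% of all genes were. The phosphodiesterase subunit Pde6b (-0.90), the transcription factors Nr2e3 (-0.80) and Nrl (-0.75) and arrestin Sag (-0.90) differed about as much as Scarb1, Gstp1 and Sec14l2. Cnga1 (-2.28) and Gnat1 (-5.35) differed more. The part of the rods in the members' differences was not tested, and in pooled retinas fewer cells of a type and less RNA per cell cannot be told apart.

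**Figure D3:**
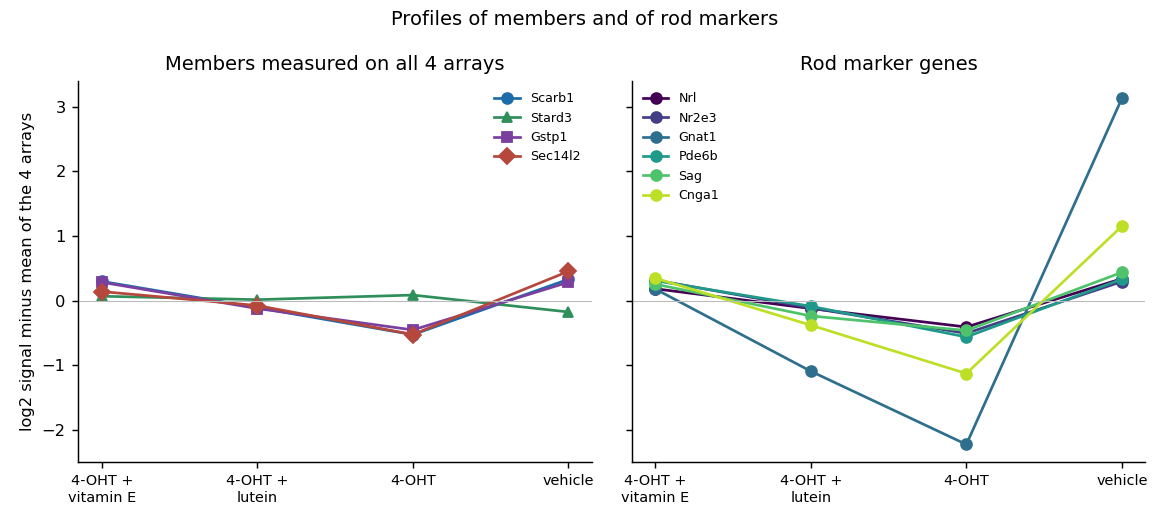
Log2 level minus the gene's mean over the 4 arrays (y axis) for the 4 members detected on all arrays (left) and the 6 rod markers (right), with lines joining the points of a gene. For 4-OHT alone against vehicle Sec14l2 differs by -0.98, Scarb1 by -0.86 and Gstp1 by -0.74, near Pde6b, Nr2e3, Sag and Nrl, while Gnat1 differs by -5.35.

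Markers of other cell types were read in the same way. Of 8 pigment epithelium markers, the defining Rpe65, Best1, Rgr and Lrat were below background on all 4 arrays, although the summed level was 8.53 with vitamin E, 10.4 with lutein, 11.6 with 4-OHT alone and 2.89 in vehicle, most of it from the melanin gene Dct. Muller glia markers (6 of 6 detected) summed to 52.1 with vitamin E, 50.6 with lutein, 50.6 with 4-OHT alone and 48.3 in vehicle. Most of that sum was the Apoe probe, and for 4-OHT against vehicle Sox9 was 2.39-fold higher while Aqp4 was 1.67-fold lower (second Aqp4 probe -0.20). Cone markers (5 listed) summed to 3.34 with vitamin E, 2.41 with lutein, 3.08 with 4-OHT alone and 3.17 in vehicle. That sum covers opposite differences between 4-OHT and vehicle, with 4 of 5 genes higher and 1 lower (median 0.84). Arr3 differed by 1.99 (second probe 0.53), Opn1sw by a bound of 1.55, Cnga3 by 0.84, Pde6c by 0.58 (second probe -0.56) and Gnat2 by -1.30. The leukocyte and microglia genes Ptprc, Aif1, Cx3cr1 and Adgre1, the endothelial genes Cdh5, Tek and Emcn, the adipocyte genes Adipoq, Plin1 and Lep, and the hepatocyte genes Alb, Afp, Apoa1 and Apob were below background throughout. The macrophage list still summed to 12.7 with vitamin E, 17.0 with lutein, 31.8 with 4-OHT alone and 12.6 in vehicle, through 3 of 7 markers, Csf1r, Itgam and Cd68, and its part in the members' differences was not tested. Most of that sum was 1 Itgam probe, which differed by 1.49 for 4-OHT against vehicle, while another Itgam probe, well above background on 2 of 4 arrays, differed by -0.15. In the same comparison Csf1r differed by 0.10 (second probe -0.24) and Cd68 by 2.38. The endothelial list summed to between 20.8 and 23.6 through Kdr and Pecam1. Most of that sum was the brighter Kdr probe, while Pecam1 had levels between -3.04 and -2.41. The adipocyte list summed to between 0.10 and 0.19 and the hepatocyte list to between 0.08 and 0.11.

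The genes with the most similar profile were found by the root mean square distance of the 4 log2 levels, each centred on its own mean, among 13279 genes detected on all arrays. For Scarb1 they were Cetn2 (0.017), 5730455P16Rik (0.018) and Pde6b (0.021), and 496 genes lay within 0.1. For Gstp1 they were Cngb3 (0.0076), Blvra (0.012) and Pigs (0.015), with 846 genes within 0.1. Cngb3 is a channel subunit of cones and Blvra is biliverdin reductase. For Sec14l2 they were Mdh2 (0.015), Nceh1 (0.017) and 1700003E16Rik (0.017), with 557 within 0.1, and for Stard3 Arhgap39 (0.0072), Top3a (0.0080) and Bcar1 (0.013), with 1485. With 4 values per gene, many genes share each shape.

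Promoter sequence is shown for Gstp1 and Sec14l2, which had the lower values with 4-OHT, and for Stard3, which did not. The sequences are the 250 bases upstream of the annotated start on the gene's own strand, from RefSeq on GRCm38.p6. Capitals mark matches on either strand to 6 motifs: AP-1 (TGANTCA), the antioxidant response element core (TGACNNNGC), the C/EBP-ATF element (TGATGNAA), the GC box (GGGCGG), the photoreceptor factor CRX site (TAATCC) and a sterol response element (TCACNCCAC). The first pair of motifs can overlap in 1 stretch of bases, but no promoter shown here held the antioxidant core.
Gstp1, chr19:4037913-4038162, minus strand: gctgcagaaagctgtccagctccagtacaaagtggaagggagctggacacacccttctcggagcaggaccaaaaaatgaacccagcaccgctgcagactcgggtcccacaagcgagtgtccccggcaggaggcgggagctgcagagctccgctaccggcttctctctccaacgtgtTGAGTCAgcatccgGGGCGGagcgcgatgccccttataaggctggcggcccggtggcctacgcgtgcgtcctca
Sec14l2, chr11:4118730-4118979, minus strand: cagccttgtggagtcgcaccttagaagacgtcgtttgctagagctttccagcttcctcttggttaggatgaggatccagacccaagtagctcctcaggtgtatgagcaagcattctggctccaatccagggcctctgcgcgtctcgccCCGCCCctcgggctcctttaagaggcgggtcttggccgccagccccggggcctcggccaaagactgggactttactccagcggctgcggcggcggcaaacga
Stard3, chr11:98358118-98358367, plus strand: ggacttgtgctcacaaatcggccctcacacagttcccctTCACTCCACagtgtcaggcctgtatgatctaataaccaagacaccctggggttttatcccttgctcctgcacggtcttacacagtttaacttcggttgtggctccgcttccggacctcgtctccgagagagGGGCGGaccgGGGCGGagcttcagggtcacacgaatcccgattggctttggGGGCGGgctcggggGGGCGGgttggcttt

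Counted in bases from the start site, Gstp1 held an AP-1 match at -74 and a GC box at -60. Sec14l2 held a GC box on the other strand at -102. Stard3 held 4 GC boxes, at -80, -70, -29 and -15, and a sterol element match at -211. Over 32851 promoters of the same length, 6.75% held an AP-1 match, 10.2% the antioxidant core, 3.45% the C/EBP-ATF element, 32.7% a GC box, 6.25% a CRX site and 1.05% the sterol element. Promoters of 8 of 10 members were matched in all. Bco2, with 2 promoters, held none of the motifs in either. Cd36 held 2 GC boxes, Pltp 1, Bco1 a CRX match and Npc1l1 a C/EBP-ATF match. A match is a string of letters and no evidence of binding in these retinas.

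Among other genes that move vitamin E, 4-OHT against vehicle gave a lower Abca1 and a higher Cyp3a11 past 2-fold. Of 20 listed genes for vitamin E transport and breakdown, 14 were measured for 4-OHT against vehicle. Of these, 1 passed 2-fold upwards, where 7.75% of all genes did, and 1 downwards, where 3.14% did, and their median was -0.014. Abca1, the sterol exporter that also releases tocopherol, was 3.18-fold lower, with levels of 0.67 with vitamin E, 0.16 with lutein, 0.07 with 4-OHT alone and 1.74 in vehicle. All 3 arrays with 4-OHT lay below vehicle for Abca1. Cyp3a11, a drug-metabolising cytochrome, was at least 2.04-fold higher with 4-OHT, on a signal not well above background in vehicle. That probe was well above background on 2 of 4 arrays, and the other Cyp3a11 probe on 0 of 4.

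Between 4-OHT with and without vitamin E, 0 of 15 measured genes of this list were past 2-fold in either direction. Of all genes, 1.48% were higher and 8.81% lower. The list median was -0.027. The largest differences were in Cyp3a11 (-0.98) and Cyp4f14, the mouse tocopherol hydroxylase (bound 0.79), whose signal with vitamin E was the 1 of 4 called well above background. With lutein against 4-OHT, 0 of 14 were past 2-fold (median 0.053), where 1.15% of all genes were higher and 3.84% lower. The largest differences there were in Cyp3a11 (bound -0.88) and Lpl, lipoprotein lipase (0.51, second probe 0.11). Against vehicle, Abca1 was 2.10-fold lower with vitamin E and 2.99-fold lower with lutein. It was the 1 gene past 2-fold of 15 measured with vitamin E (median 0.10) and of 13 with lutein (median 0.17). Of all genes, 1.09% were higher and 1.98% lower with vitamin E, and 3.43% higher and 1.49% lower with lutein.

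Retinoid genes, which handle the products of carotenoid cleavage, included single genes with larger differences than any member. Of 23 genes listed for carotenoid and retinoid handling, 19 were measured for 4-OHT against vehicle. Past 2-fold there were 3 higher genes, where 7.75% of all genes were, and 2 lower genes, where 3.14% were, and the list median was -0.04. Aldh1a3, which makes retinoic acid, was at least 31.0-fold higher; its levels were -3.44 with vitamin E, -0.61 with lutein, 0.68 with 4-OHT alone and -5.23, not well above background, in vehicle. Crabp2, a retinoic acid carrier, was 2.70-fold higher and Stard5, a sterol-transfer relative of Stard3, 2.07-fold higher, although the other Stard5 probe gave a log2 difference of 0.33. Dhrs3, which turns retinal back into retinol, was 2.97-fold lower, and Gramd1c, of a family of sterol transporters, 2.86-fold lower.

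With vitamin E against 4-OHT alone, 1 of 20 measured genes of this list was at least 2-fold higher, where 1.48% of all genes were, and 3 lower, where 8.81% were (median 0.33). Aldh1a1, the other main retinoic acid enzyme of the retina, was 2.28-fold higher, with levels of 5.01 with vitamin E, 4.18 with lutein, 3.82 with 4-OHT alone and 3.92 in vehicle. Aldh1a3 was 17.3-fold lower, the retinol carrier Rbp4 2.46-fold lower and the retinoic acid-degrading Cyp26b1 just past 2-fold lower. With lutein against 4-OHT alone, 0 of 19 were higher, where 1.15% of all genes were, and 2 lower, where 3.84% were (median 0.17). The lower genes were Aldh1a3, by 2.43-fold, and Cyp26b1, by 2.26-fold. Against vehicle, 1 of 20 was past 2-fold with vitamin E, Aldh1a1 at 2.13-fold higher (median 0.02), where 1.09% of all genes were higher and 1.98% lower. With lutein 3 of 19 were past 2-fold (median -0.04), where 3.43% of all genes were higher and 1.49% lower. They were Aldh1a3, at least 12.8-fold higher, Dhrs3, 2.70-fold lower, and Gramd1c, 2.19-fold lower.

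**Figure D4:**
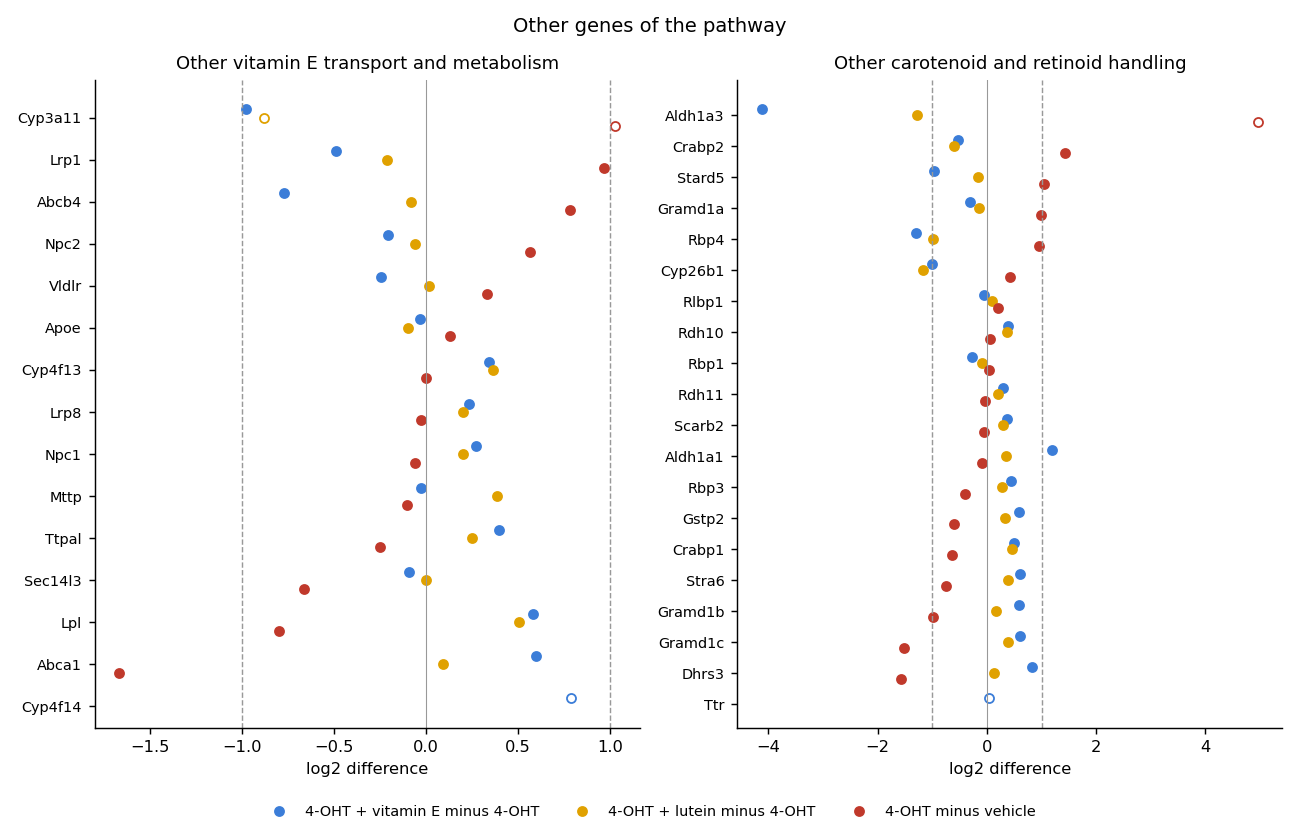
Log2 differences (x axis) of the measured genes (y axis) listed for vitamin E transport and metabolism (left) and for carotenoid and retinoid handling (right), in 3 comparisons that share the 4-OHT array, with open circles for bounds and dashed lines at 2-fold. Abca1 (-1.67) is the outermost gene on the left and Aldh1a3 (bound 4.96 for 4-OHT against vehicle, -4.11 for vitamin E against 4-OHT) on the right.

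Of 10 genes listed as regulators of the members, 8 were measured in each comparison. Isx, the intestinal repressor of Scarb1 and Bco1, and the xenobiotic receptor Nr1i2 were not well above background. For 4-OHT against vehicle 0 of 8 were past 2-fold (median -0.26), where 7.75% of all genes were higher and 3.14% lower. The largest differences were in the lipid receptor Ppara (-0.91) and the sterol-response factor Srebf1 (-0.75). The 3 Ppara probes, well above background on all arrays, disagreed: the brightest gave -0.91 and the others -1.31, past 2-fold, and -0.13. Srebf1 had levels of 1.52 with vitamin E, 1.13 with lutein, 0.72 with 4-OHT alone and 1.47 in vehicle, lowest with 4-OHT alone as Scarb1 was. With vitamin E against 4-OHT 0 of 8 were past 2-fold (median 0.23), where 1.48% of all genes were higher and 8.81% lower. The largest differences were in Srebf1 (0.80) and the liver X receptor Nr1h3 (0.54, second probe 0.35). With lutein against 4-OHT 0 of 8 were (median 0.15), where 1.15% of all genes were higher and 3.84% lower. The largest differences were in Srebf1 (0.42) and Pparg (0.23). Against vehicle, Ppara was 2.09-fold lower with vitamin E, as 1 of 8 (median 0.01), where 1.09% of all genes were higher and 1.98% lower. The other Ppara probes gave -1.07 and -0.29. With lutein 0 of 8 were past 2-fold (median -0.07), where 3.43% of all genes were higher and 1.49% lower. Ppara differed by -0.89 there, with -1.14 and -0.14 for its other probes, and Srebf2 by 0.52 (second probe 0.65). The Ppara counts thus turn on which probe stands for the gene.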

How the data were processed

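Cy3-labelled RNA (50 ng per sample, per the labels) from 4 pooled samples was hybridised to 1-colour mouse arrays and scanned; the submitters' processing notes name Agilent Feature Extraction 10.7.3.1. The deposited intensity had its background subtracted and spatial trends removed, and arrays were not normalized to each other, per the file headers. The arrays shared a slide, so position on it and group cannot be told apart. Probe positions are those of mm9 in the files; exons and UTRs of that build were not used here. Intensities of the lutein sample were deposited at 3 significant digits, and gene names were read from the vehicle file. The authors' deposited value table holds a linear signal, the intensity over 1 number per array (468.9 with vitamin E, 479.2 with lutein, 434.1 with 4-OHT, 494.2 in vehicle; column medians 0.0736, 0.0847, 0.0949 and 0.0794), found by comparison with the scanner files; it served as an alternative.

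Deposited intensities were log2-transformed and centred on each array's 75th percentile over gene spots (498 to 565). Control spots were dropped, as were 137 to 164 non-uniform or outlying spots per array, and copies of a probe were averaged. The probe with the highest mean stood for a gene. Of 55681 probes 50.9% had an accession in RefSeq (GRCm38.p6, names only), which replaced 1403 names. A gene entered a comparison if well above background on at least 1 array. A dim value was replaced by the array's detection floor (the lowest signal called well above background) where that was higher, and the result is written "at least N-fold". The limit was 2-fold (alternatively 1.5-fold or 4-fold), a size without a test.

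The members and gene lists were chosen with earlier results of these data known. Named genes were all members, up to 4 genes past 2-fold of each list per comparison or else its 2 largest, the 3 nearest profiles, and the markers. Other alternatives were median, quantile and spike-in scaling (7 of 10 spike-in probes), normexp background with offset 50 (limma 3.58.1, R 4.3.3), the mean of probes, detection on both arrays, and no filter. Other steps used Python 3.11.15, NumPy 2.4.6, pandas 2.3.3 and matplotlib 3.10.9. Only the count past 2-fold was tested on simulated data, for 4-OHT against vehicle. Some listed genes and sequences are not reported here.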

Additional observations from a re-analysis of the deposited data

How the results depend on the processing

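Of 197 member values recomputed under the alternatives, 176 stayed within 1 SD of the spot noise and 21 moved further. The only main values past 2-fold were those of Bco2 with either supplement against 4-OHT, and 0 of these changed sign. Signs did change near 0, for Stard3 with either supplement against 4-OHT and for Scarb1 (-0.12 to 0.04) and Gstp1 (-0.03 to 0.07) with vitamin E against vehicle. Many of the 176 could not move, as with a filter on genes detected anyway. The cause of each shift was not tested, unless it follows from how many genes entered or from the normexp offset. That offset shrinks differences of dim probes such as Bco2. On spike-in scaling, 2 members were at least 2-fold lower for 4-OHT against vehicle (median -0.88), where 1143 of all 22084 genes were. For vitamin E against 4-OHT 2 were higher (median 0.96), where 748 of all 22160 genes were. Quantile normalization gave medians of 0.56 for vitamin E and 0.27 for lutein against 4-OHT. With normexp background, or with detection on both arrays, 0 members were higher for either supplement against 4-OHT, and the vitamin E median was 0.59 with normexp. Of all genes, 134 of 22160 were higher with vitamin E and 78 of 21997 with lutein under normexp. With detection on both arrays 225 of 20083 and 75 of 20032 were. At 1.5-fold, 3 members were lower for 4-OHT against vehicle, where 13.5% of all genes were. For vitamin E 4 were higher against 4-OHT, where 8.56% of all genes were, and 1 against vehicle, where 4.4% were. At 4-fold, 0 were higher for either supplement against 4-OHT. With no filter all 10 genes entered, 5 of them at background. For 4-OHT against vehicle 1 was higher, as were 3146 of all 35745 genes. For vitamin E against 4-OHT 1 was lower (median -0.042), as were 3712 of 35747. For vitamin E against vehicle 1 was lower (median -0.22), as were 1559 of 35739. For lutein against vehicle 1 was higher (median -0.055), as were 2106 of 35733. Across all settings Sec14l2 ranged over -1.12 to -0.77 and Gstp1 over -0.88 to -0.53 for 4-OHT against vehicle, and Bco2 over -0.87 to -0.10 for 4-OHT against vehicle, 0.31 to 1.56 for vitamin E and 0.19 to 1.21 for lutein against 4-OHT, and 0.21 to 0.69 for vitamin E and 0.087 to 0.45 for lutein against vehicle. With spike-in scaling Stard3 was 0.31 above vehicle with vitamin E. No paired analysis was possible because there was 1 array per group, and for the same reason none could be left out.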
